A study of Mus musculus with 31 samples.

Results

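Autosomal H3K27me3 was compared between female and male mouse germ cells at E13.5 (E stands for embryonic day), in 3 peak lists of each sex. The members are the broad peaks of those 6 lists on chromosomes 1 to 19, which came to 25730 of the 265293 peaks in the 18 lists of the series. The series has 31 samples, of which 13 are inputs, and also maps H3K9me3 and an earlier stage, E10.5. All groups were wild type on the background C57BL/6 x GOF18delta_PE-EGFP, which carries an EGFP reporter of germ cells. Both E13.5 groups were labelled primordial germ cells, differed in the labels by sex alone, and received no treatment. The labels give the sex of the embryos and not the organ, and peak lists hold no expression values, so the cell type could not be checked against markers. Each ChIP used 1000 cells and 250 ng of antibody on unfixed chromatin cut with micrococcal nuclease, and libraries were read as 100-bp paired ends. Nothing in the labels ties the replicates to different embryos or litters. The p-values therefore cover the spread between these lists and no more, and that spread may be technical. The sample numbers in the peak names do not settle whether replicates 1 and 2 of a group were independent.

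H3K27me3 is the repressive mark that Polycomb repressive complex 2 places on histone H3, and it is known for covering promoters of silent developmental regulators. Primordial germ cells carry it while they lose most of their DNA methylation on the way into the gonad. Around the stage studied, female germ cells prepare to enter meiosis and male germ cells move towards mitotic arrest. Positions below are in mm9, and regions carry no gene names because no mm9 annotation was at hand.

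The lists differed widely in how much they contained. Peak lists carry no read counts, so the depth is unknown and the number of peaks limits the precision of every value. The female lists held 2529, 7544 and 6546 autosomal peaks, and the male lists 3479, 343 and 5289. The male replicate 2 list stood apart in more than its length. H3K9me3 peaks of the same sex and replicate number covered 44.3% of it, against 0.428 to 5.26% of the other 5 lists, and chromosome 9 carried 18.4% of it, against 3.83 to 5.51%. The comparisons are therefore given with and without that list.

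Peaks covered 1.51, 5.05 and 4.00 Mb of the autosomes in female lists and 2.46, 0.155 and 3.98 Mb in male lists. Male replicates 1 and 3 lay inside the female range, and male replicate 2 lay below it. The means were 3.52 ± 1.82 Mb in female and 2.20 ± 1.92 Mb in male lists (SD, n = 3 each). They differed by 1.32 Mb, less than the spread between replicates (two-sided exact permutation p = 0.4, where 3 against 3 lists cannot go below 0.1). The difference shrank to 0.299 Mb without male replicate 2. A 10-kb bin counts as held by a list where peaks cover 1 kb of it or more. The female lists held 478, 1641 and 1248 bins and the male lists 793, 17 and 1255. This difference of 434 bins did not pass the test either (two-sided exact permutation p = 0.5), and it was 98.3 bins without male replicate 2.

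**Figure D1:**
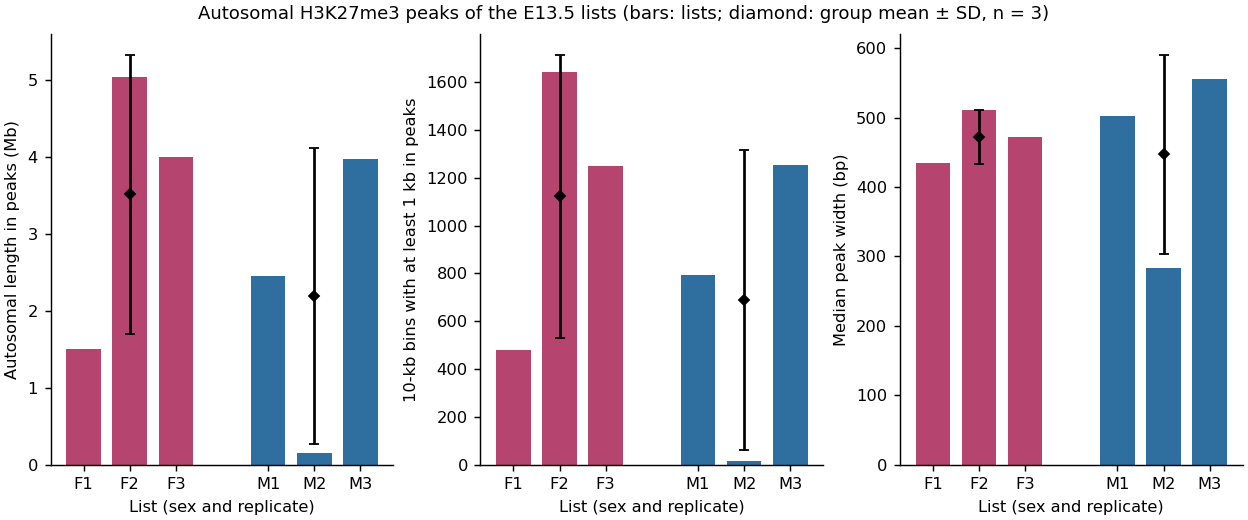
Autosomal peak length (Mb), number of 10-kb bins held, and median peak width (bp) for each E13.5 H3K27me3 list, with female lists F1 to F3, male lists M1 to M3, and the group mean ± SD (n = 3) as a diamond, whose lower bar ends at 0 at the lowest. M2 is far below all others in length (0.155 Mb) and bins (17), while the remaining male lists fall within the female range of 1.51 to 5.05 Mb.

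Peak widths of the sexes overlapped. Median widths were 434, 511 and 472 bp in female and 502, 284 and 555 bp in male lists (difference 25.3 bp, two-sided exact permutation p = 0.9). The sign turned without male replicate 2, to -56.2 bp for female minus male. Peaks of 5 kb or wider made up 0.404, 0.531 and 0.338% of the female length, and 1.13 and 2.00% in male replicates 1 and 3, while male replicate 2 had 0%.

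Overlap between lists of one sex did not exceed overlap across the sexes by more than the spread. The Jaccard index, the shared length over the combined length of 2 lists, averaged 0.0841 within sexes and 0.0806 between them (one-sided exact permutation p = 0.4 over 10 splits). Leaving out male replicate 2 gave averages of 0.112 and 0.109 (one-sided exact permutation p = 0.5). The closest pair was male replicates 1 and 3, at 0.142, followed by female replicates 2 and 3, at 0.137. Female replicate 2 and male replicate 3, a pair across the sexes, came next at 0.131. For female replicate 1, the shortest female list, the index was 0.103, 0.0492 and 0.0853 with male replicates 1, 2 and 3. With female replicates 2 and 3 it was 0.0878 and 0.0823. In shared length male replicate 1, at 369 kb, came below 3 longer lists. These were female replicates 2 and 3, at 529 and 419 kb, and male replicate 3, at 431 kb.

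Of each female list, 41.3, 28.7 and 30.2% of the length lay in peaks of at least 1 male list. Of each male list, 48.2, 70.7 and 42.3% lay in peaks of at least 1 female list. All male shares lay above all female shares, with a difference of -20.3 percentage points between female and male (two-sided exact permutation p = 0.1, the smallest that 3 against 3 allows). The reference for each sex is the union of the other sex's lists, and the female lists were longer in sum. With 1 list left out the difference ran from -5.97 points (without female replicate 2) to -41.0 points (without male replicate 3). It was -9.81 points without female replicate 3, -12.9 without female replicate 1, -12.2 without male replicate 2 and -32.0 without male replicate 1. With 2529 top-scored peaks per list it was -13.2 points (two-sided exact permutation p = 0.1), and -4.18 points when male replicate 2 was also left out (p = 0.2, two-sided exact permutation).

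Most bins were held by few lists. Of the 2690 autosomal bins held by at least 1 of the 6 lists, 891 were held by 1 female list alone and 450 by 1 male list alone. All 3 female lists and no male list held 45 bins, which is 1.67% of the bins, with all 6 lists as without male replicate 2 (1.67% again). All 3 male lists and no female list held 0 bins (0%). Once male replicate 2 was left out, male replicates 1 and 3 held 77 bins that no female list held, or 2.86%. The male count asks for 2 lists and the female count for 3, so 77 and 45 are not like for like.

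**Figure D2:**
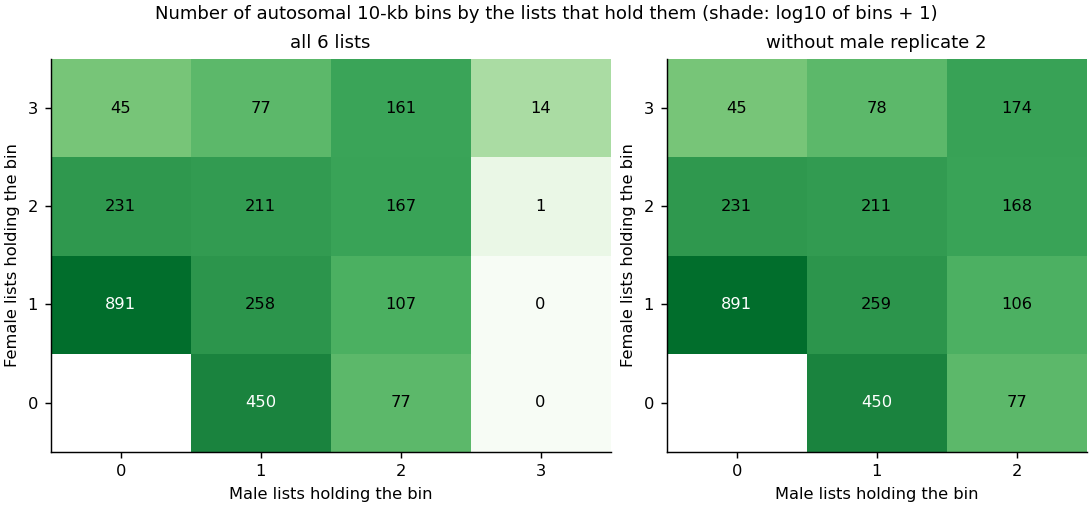
Number of autosomal 10-kb bins by how many female lists (vertical axis, 0 to 3) and male lists (horizontal axis) hold them, with all 6 lists at left and without male replicate 2 at right; shade is the log10 of the number plus 1. The top left cells hold the 45 bins of the female lists alone, and the bottom right cells the bins of the male lists alone, 0 with all 6 lists and 77 without male replicate 2.

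With equal numbers of lists per sex, neither sex was higher throughout. Female replicates 2 and 3 alone held 222 bins and male replicates 1 and 3 alone held 86. With female replicates 1 and 3 the counts were 60 female and 141 male, and with female replicates 1 and 2 they were 84 and 110. The order of the sexes thus turned with the female list left out, and female replicate 1 is the shortest of these 5 lists.

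The 45 female bins formed 42 regions on 15 autosomes, 3 of them 20 kb long and the rest 10 kb. Chromosome 14 had 7 of the bins and chromosome 4 had 5. Most were close to the threshold: in 40 of the 45 a female list had under 2 kb, and in 20 a male list other than replicate 2 had 0.5 to 1 kb. Male replicates 1 and 3 both had no peak at all in 12. Ranked by the authors' score within each list, the strongest peak of a female bin stood at a median percentile of 63.3, 81.9 and 79.8 in female replicates 1, 2 and 3. Among the 2690 bins the medians were 57.0, 72.5 and 69.2, each over the bins where that list had a peak of any length. No E13.5 H3K9me3 list held any of the 45, against 34 of the 2690 bins.

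The longest female region by peak length was chromosome 17 from 48040001 to 48060000. It held 8.52, 8.44 and 6.08 kb in the female lists, and 0, 0 and 1.06 kb in the male lists. A neighbouring bin, chromosome 17 from 48000001 to 48010000, held 1.02, 3.48 and 6.48 kb in female and 0.284, 0 and 0 kb in male lists. In both, the rule that picked the bins sets every female list above every male list. Female replicate 1 was barely past 1 kb in the second region. Chromosome 3 from 128910001 to 128930000 had 3.60, 4.63 and 3.52 kb in female lists and 0 kb in all 3 male lists. Chromosome 14 from 49280001 to 49290000 had 2.93, 5.56 and 3.46 kb in female lists and again 0 kb in all male lists. These last 2 were free of male peaks among the 10 female regions named.

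Chromosome 19 from 46500001 to 46520000 had 3.18, 4.99 and 4.79 kb in female lists but also 0.510 and 1.24 kb in male replicates 1 and 3, spread over 2 bins. The other 5 named female regions averaged 2.85 to 3.25 kb in female lists. They lie on chromosome 5 (from 75350001), chromosome 11 (from 79140001 and from 69240001), chromosome 9 (from 69610001) and chromosome 14 (from 118650001), each 10 kb long. Male replicates 1 and 3 averaged 0.142 to 0.471 kb there. No female region held 5 kb or more in a single bin in all 3 female lists.

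The 77 male bins formed 75 regions on 17 autosomes, 2 of them 20 kb long. In 64 of them a male list had under 2 kb, and in 43 a female list had 0.5 to 1 kb. All 3 female lists had no peak in 13. The strongest peak of a male bin stood at a median score percentile of 58.4 in male replicate 1 and 69.2 in male replicate 3. These were near the medians over those of the 2690 bins where the list had a peak, 59.8 and 65.1. As with the female bins, 0 of the 77 were held by an E13.5 H3K9me3 list, against 34 of the 2690 bins. With so few held over all bins, a count of 0 does not set the female or male bins apart. H3K9me3 peaks of any length overlapped 1 of the female and 2 of the male bins.

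Chromosome 2 from 9790001 to 9810000 was the longest male region, with 8.51 and 5.88 kb in male replicates 1 and 3. Male replicate 2 had 0.237 kb there, and the female lists 0.786, 1.50 and 0 kb. Chromosome 5 from 38200001 to 38220000 had 4.71 and 3.11 kb in male replicates 1 and 3, 0 kb in male replicate 2, and 0, 0.378 and 0 kb in female lists. That the 2 longer male lists lay above every female list in both regions is set by the rule that picked them. Chromosome 5 from 148110001 to 148120000 had 3.17 and 3.75 kb in male replicates 1 and 3, and it was the only one of the 10 named male regions with 0 kb in all female lists. On chromosome 7, the bin from 20350001 to 20360000 held 3.51 and 3.82 kb in these male lists against 0, 0 and 0.604 kb in female lists. Uneven male lists were seen at chromosome 17 from 45680001 to 45690000, with 1.01 and 6.95 kb, and at chromosome 11 from 57640001 to 57650000, with 2.60 and 7.25 kb.

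**Figure D3:**
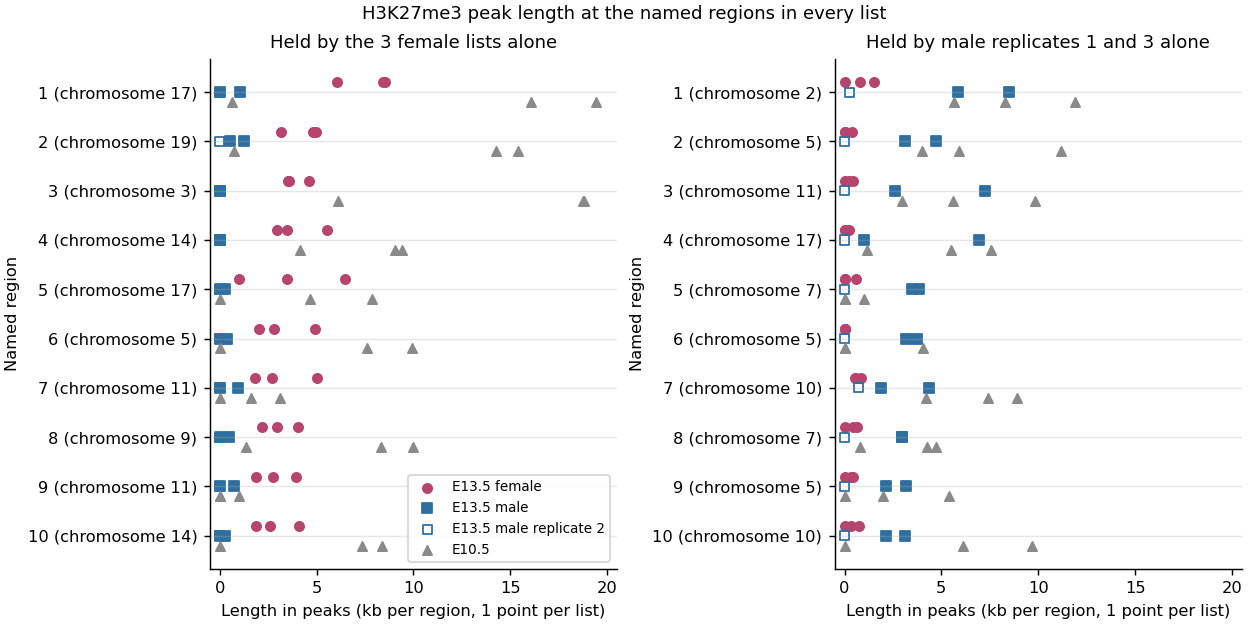
Length in H3K27me3 peaks (kb) in every list at the 10 named regions held by the 3 female lists alone (left) and by male replicates 1 and 3 alone (right), with circles for E13.5 female, filled squares for E13.5 male, open squares for male replicate 2 and triangles for E10.5 lists. Male points lie at 0 to 1.24 kb at left, female points at 0 to 1.50 kb at right, and E10.5 points reach 19.4 kb.

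A larger set was common to both sexes. All 5 lists other than male replicate 2 held 174 bins, and the median over these bins of the mean peak length was 2.89 kb in female and 2.89 kb in male lists. As a share of each list's autosomal length, the median log2 ratio of female to male was -0.03. All 3 female lists lay above both male lists in 15 of the bins (8.62%), and both male lists above all 3 female lists in 21 (12.1%). With so few lists, part of the bins separates this way by chance, and these counts were not tested. Common bins lay close together: 54.0% had another such bin within 50 kb, and 8.89% of the female and 9.09% of the male bins lay that near to one, against 14.7% of all bins held.

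All 6 lists held 14 bins in 9 regions, and these were 14 of the 17 bins that male replicate 2 held at all. The longest was at the start of chromosome 9, from 3000001 to 3030000, with 11.6, 7.35 and 6.43 kb in female and 11.0, 19.1 and 8.46 kb in male lists. H3K9me3 peaks covered 21.4 to 28.5 kb of that region in the 6 E13.5 H3K9me3 lists. Of the 14 bins, 6 were held by H3K9me3 lists as well, against 34 of the 2690 bins. Among them, chromosome 4 from 118220001 to 118230000 had 1.32 to 1.33 kb in all 6 lists. The E13.5 H3K9me3 lists averaged 1.26 kb there. At chromosome 2 from 98500001 to 98510000 the 6 lists had 1.735 to 1.959 kb, and the H3K9me3 lists averaged 2.42 kb. Chromosome 4 from 88420001 to 88450000 carried no H3K9me3 peak, with 8.13, 9.08 and 10.2 kb of H3K27me3 in female and 11.8, 4.93 and 15.8 kb in male lists. Chromosome 10 from 57680001 to 57700000 carried none either, with 5.60, 10.4 and 8.95 kb in female and 6.60, 4.07 and 8.23 kb in male lists, and all 3 E10.5 lists had 0 kb there. H3K9me3 peaks were also missing at chromosome 1 from 173000001 to 173010000, at 2.71 to 4.83 kb in female and 2.69 to 5.71 kb in male lists, and at chromosome 9 from 91270001 to 91280000, at 2.77 to 6.20 kb and 1.29 to 4.18 kb.

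Most H3K27me3 length of both sexes lay where E10.5 cells had peaks too. The labels give the E10.5 cells no sex, and their 3 lists covered 19.5, 2.07 and 34.7 Mb of the autosomes. In peaks of at least 1 E10.5 list lay 87.7, 80.2 and 76.8% of the length of the female lists and 84.5, 86.0 and 78.9% of the male lists. The groups overlapped, and the difference of -1.58 percentage points did not pass the test (two-sided exact permutation p = 0.8), and it was -0.147 points without male replicate 2. In both sexes the list with the lowest share was replicate 3.

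At E10.5, at least 1 list held all 45 of the female bins (100%), 64 of the 77 male bins (83.1%) and 171 of the 174 common bins (98.3%). The share over all 2690 bins was 89.1%. All 3 E10.5 lists held 33.3% of the female, 23.4% of the male and 62.6% of the common bins, against 18.7% of all bins. Female bins are asked for in 3 lists and male bins in 2, so these shares were not tested against each other. Mean peak length at E10.5 was above the female mean in 8 of the 10 named female regions. Chromosome 3 from 128910001 held 18.8, 6.09 and 18.8 kb of its 20 kb at E10.5, and chromosome 17 from 48040001 held 16.1, 0.612 and 19.4 kb. Mean peak length at E10.5 was below the female mean at both chromosome 11 regions. The one from 69240001 had 0, 0 and 1.02 kb at E10.5 and 1.87, 2.75 and 3.94 kb in female lists. The one from 79140001 had 1.60, 0 and 3.10 kb at E10.5 and 1.82, 5.05 and 2.70 kb in female lists. In male regions, chromosome 2 from 9790001 held 8.30, 5.65 and 11.9 kb at E10.5. The chromosome 7 bin from 20350001 and the chromosome 5 bin from 148110001 had peaks in E10.5 replicate 3 alone, at 1.00 and 4.04 kb.

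**Figure D4:**
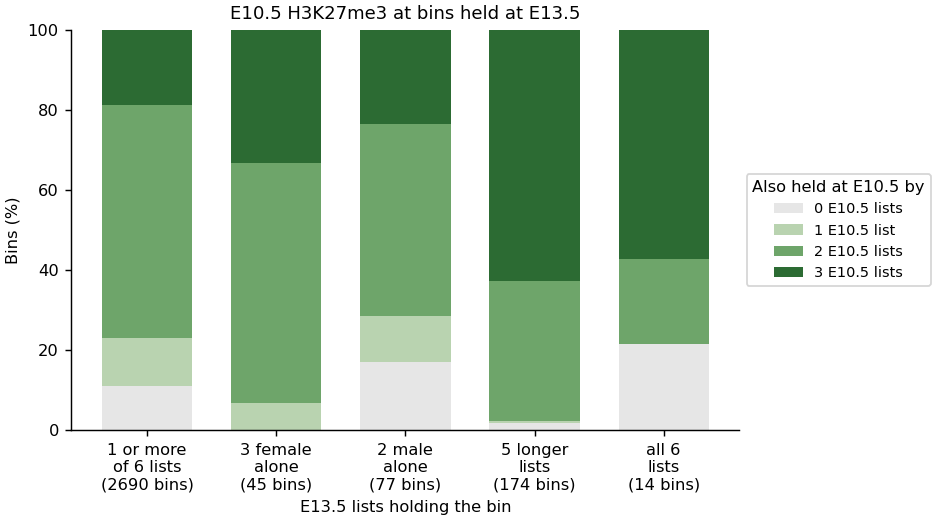
Percentage of autosomal 10-kb bins that 0, 1, 2 or 3 E10.5 lists also held, for bins held at E13.5 by at least 1 of 6 lists, by the 3 female lists alone, by male replicates 1 and 3 alone, by the 5 longer lists and by all 6. E10.5 lists held all 45 female bins, while 13 of the 77 male bins were held by no E10.5 list.

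In 1-Mb bins, the share of each list's autosomal peak length (in ppm of that length) was tested with limma on log2(ppm + 100), a scale that understates changes of bins with little peak length. Of 1176 bins 1 was called at an adjusted p under 0.05, which is 0.085%, and it was higher in female lists; 90 bins had an unadjusted p under 0.05. With male replicate 2 left out, the same bin was the only call among 1155 bins (0.0866%). The median change over all bins was 0.40 on the log2 scale with male replicate 2 and -0.02 without it, so changes with all 6 lists stand on a raised baseline.

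That bin is chromosome 18 from 66000001 to 67000000. It took 5194, 6825 and 4552 ppm of the female lists and 102, 0 and 87.5 ppm of the male lists, so the groups lay far apart. The E10.5 lists were near the female ones, at 4203, 3140 and 3880 ppm. The limma log2 difference was 5.15 ± 0.76 (SE), with an adjusted p of 0.0353. Without male replicate 2 it was 4.83 ± 0.57 (SE, limma adjusted p = 0.0147). The call was lost when any list other than male replicate 2 was left out, with limma adjusted p from 0.0715 to 0.176 and log2 differences from 4.99 to 5.34. In kb, the female lists had 7.84, 34.4 and 18.2, the male lists 0.251, 0 and 0.348, and the E10.5 lists 82.0, 6.50 and 134.8.

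Inside the bin the marked ground was broken into several blocks. Of its 100 bins of 10 kb, 29 had a peak in at least 1 female list and 34 in at least 1 E10.5 list, and 26 of the 29 (89.7%) had both. That share is not particular to this bin. Counted at 1 kb or more, at least 1 E10.5 list held 89.1% of the 2690 autosomal bins held at E13.5. Only 2 of the 100 had a male peak, 1 in male replicate 1 and 1 in male replicate 3, and both had E10.5 peaks. Female replicate 2 held 12 of the 10-kb bins with at least 1 kb, female replicate 3 held 8 and female replicate 1 held 3.

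**Figure D5:**
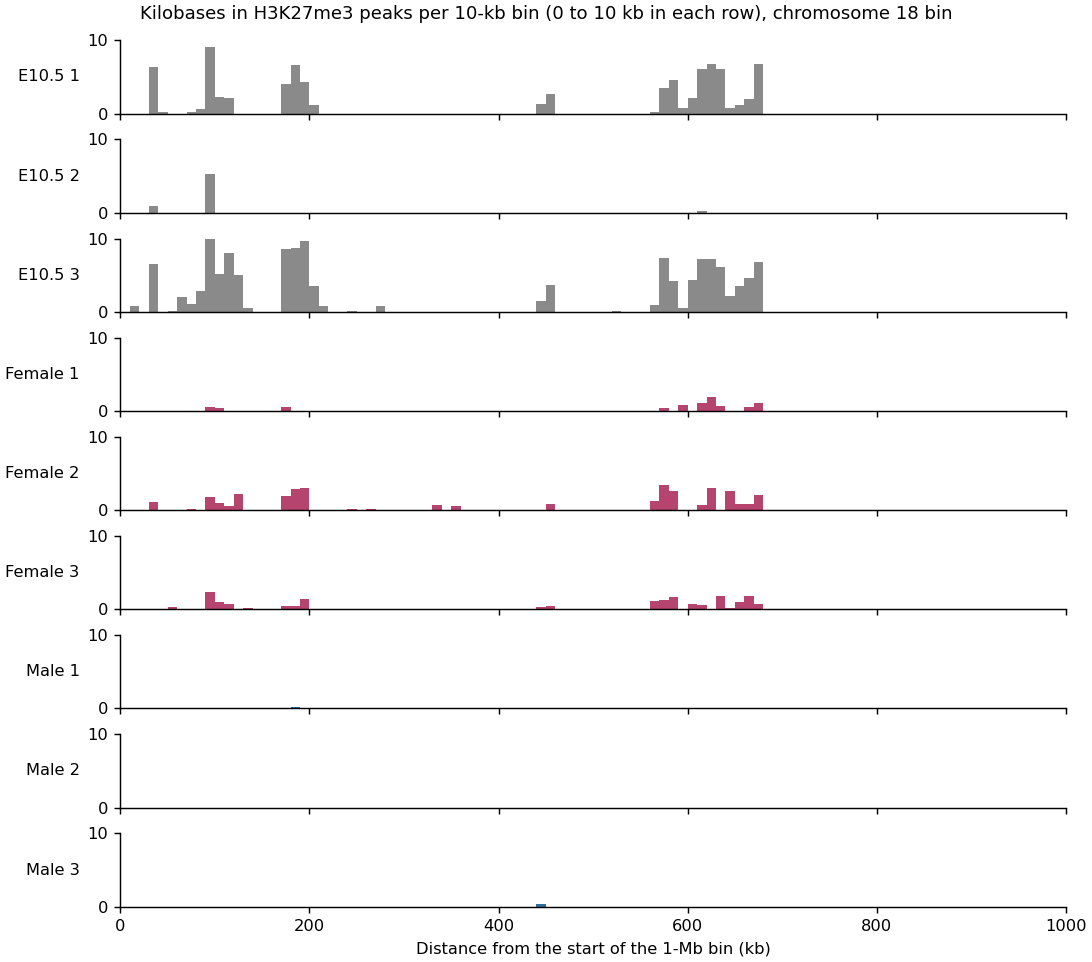
Kilobases in H3K27me3 peaks per 10-kb bin (vertical axes, 0 to 10 kb) along the called 1-Mb bin of chromosome 18, by distance from its start (kb), for the E10.5 lists (grey), the female lists and the male lists. Female peaks fall where E10.5 peaks are, in 26 of 29 bins, and the male rows are empty but for 0.251 kb in replicate 1 and 0.348 kb in replicate 3. Over all autosomes, E10.5 lists held 89.1% of the 2690 bins held at E13.5.

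The bins next in order of p were not called, and they are named after their values were seen. Chromosome 14 from 27000001 to 28000000 took 4950, 3268 and 2432 ppm of female lists and 0, 0 and 205 ppm of male lists (limma log2 difference 4.60, adjusted p = 0.0886, or 0.0759 without male replicate 2). Chromosome 11 from 90000001 to 91000000 took 2487, 1399 and 1459 ppm against 0, 0 and 159 ppm (limma log2 difference 3.73, adjusted p = 0.193, or 0.129 without male replicate 2). Chromosome 8 from 10000001 to 11000000 took 751, 790 and 1810 ppm of female lists and 0 ppm of all 3 male lists (limma log2 difference 3.50, adjusted p = 0.193, or 0.119 without male replicate 2). Chromosome 14 from 49000001 to 50000000, which holds the female region from 49280001, took 5261, 3972 and 3237 ppm against 635, 0 and 106 ppm (limma log2 difference 4.08, adjusted p = 0.193, or 0.131 without male replicate 2). All 4 of these bins had peaks in E10.5 replicates 1 and 3, long lists that covered 19.5 and 34.7 Mb of the autosomes.

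At 10-kb resolution limma called 0 of 1349 bins (0%) with all 6 lists and 0 without male replicate 2 (0%). Unadjusted p was under 0.05 in 8.82 and 13.8% of the bins. With all 6 lists limma gave the leading bins the same SE, 1.02, pooled over bins and not each bin's own. The lowest adjusted p was 0.0821 (0.168 for the same bin without male replicate 2), at chromosome 15 from 91730001 to 91740000, a bin also named after its values were seen. There all 3 male lists had peaks, 2.53, 0.933 and 2.50 kb, while the female and the E10.5 lists had 0 kb. On the tested scale the male lists had 1029, 6031 and 630 ppm, so the short male replicate 2 list was the highest, with 1 peak. The bin fell short of the list of male bins because male replicate 2 was under 1 kb, and it is among the 77 without that list.

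By whole chromosome, limma on the log2 share of each autosome called 0 of 19 with all 6 lists (0%), with 2 at an unadjusted p under 0.05, chromosomes 6 and 14. Without male replicate 2 it called 4 of 19 (21.1%), 3 higher in female lists and 1 higher in male lists. With all 6 lists the sexes did not overlap on 5 of the 19 autosomes, with 14, 18 and 19 higher in female and 6 and 15 higher in male lists. So few lists can fail to overlap by chance, and this count was not tested. Shares of one list sum to 100%, so the autosomes are not independent. Nor are they separate from the 1-Mb bins. Chromosome 18 contains the called bin, which averaged 5524 ppm of the female lists and 94.8 ppm of male replicates 1 and 3. Chromosome 14 contains the uncalled bins from 27000001 and from 49000001. Without male replicate 2, limma gave every autosome the same SE, 0.12. Its p-values there rest on a spread pooled over the autosomes and not on each autosome's own. Chromosome 14 had 4.41, 4.03 and 3.37% of the female length and 2.88, 1.36 and 2.46% of the male length. The limma log2 difference without male replicate 2 was 0.54 ± 0.12 (SE, adjusted p = 0.000619), and with it the adjusted p was 0.248. Chromosome 18 had 3.11, 3.99 and 3.18% against 2.83, 1.05 and 2.27% (limma adjusted p = 0.00962 without male replicate 2, and 0.369 with it). Chromosome 6, higher in male lists, had 7.62, 7.63 and 7.16% of the female and 8.49, 9.19 and 9.24% of the male length (limma adjusted p = 0.248, or 0.145 without male replicate 2).

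The other calls rested on leaving out male replicate 2. Chromosome 7 had 3.93, 5.39 and 5.30% of the female length, 5.92 and 6.54% in male replicates 1 and 3, and 3.10% in male replicate 2 (limma adjusted p = 0.0239 without the last), and the male mean was higher with and without that list. Chromosome 9 had 5.51, 4.63 and 4.81% in female lists against 3.83 and 3.97% in male replicates 1 and 3 (limma adjusted p = 0.0270), and 18.4% in male replicate 2, with which the male mean was the higher.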

How the data were processed

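Groups came from the sample titles. The deposited broad-peak files give 1 list per ChIP library, so peaks were called per sample. Tools named in the submitters' processing notes, without their roles, were MACS2 2.1.0, BWA 0.7.5a, CASAVA 1.8.4, deepTools 3.3.0, SAMtools and Picard, and the build was mm9. How peaks were thresholded is not given in the sources used here. Each peak has a deposited score (column 9), the authors' value on an unknown scale, which served to rank peaks within a list. Start and end positions, as deposited, gave all lengths.

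Overlapping peaks of a list were merged, and autosomal length was summed per list, per 10-kb bin and per 1-Mb bin. Group means were compared by exact permutation tests. Bin shares were tested with limma 3.58.1 (R 4.3.3) on log2(ppm + 100), over 1-Mb bins with peaks in at least 3 lists and 10-kb bins held by at least 2, with Benjamini-Hochberg adjustment and a threshold of 0.05. The merging and summing of peaks and the limma fit were tried on simulated data, but the permutation tests were not. Adjacent separating bins were merged, and the 10 longest regions per sex and the 5 longest held by all lists were named, ties going to the larger mean peak length, together with called bins and autosomes. For males this was done without male replicate 2, since no bin qualified with it. The planned gene lists were not used, because the annotation at hand is of another build. The members and lists were chosen with earlier results of these data known. Alternatives were other bin sizes, grids, minimum lengths, pseudocounts and filters, equal numbers of top-scored peaks, a replicate block, and each list left out.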

Additional observations from a re-analysis of the deposited data

Results flagged for a closer look

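Peaks on chromosome X were outside the autosomal comparison and are given as values. The female lists held 100, 295 and 267 X peaks, and the male lists 42, 16 and 37, so every female list held more than every male list. On all chromosomes the female lists held 2629, 7839 and 6813 peaks and the male lists 3522, 359 and 5333. As a share of its peaks, male replicate 2 was above every female list, and male replicates 1 and 3 were below. They are listed because the files carry signal that the comparison did not use, and neither copy number nor list length was tested against it. Male replicate 3 alone among the 6 lists held peaks on the mitochondrial genome, 7 of them.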

How the results depend on the processing

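Depth is unknown, and exact tests of 3 against 3 lists cannot go below p = 0.1. Values were computed again under each alternative; those that combine another change with leaving out male replicate 2 were chosen after seeing the data, except the bin counts from equal numbers of top peaks.

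With 2529 top-scored peaks per list and male replicate 2 left out, the female minus male difference turned to -0.344 Mb for length, -123.5 for bins held and -83.7 bp for median width, and to 0.690 points for the E10.5 share (0.418 points with that list in). Leaving out 1 list at a time moved the width difference from -56.2 to 79.3 bp, the E10.5 share from -4.66 to 0.830 points, and the Jaccard difference from -0.0096 (without female replicate 2; -0.0094 without female replicate 3) to 0.0219. The cause was not tested.

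Bins of the female lists alone numbered 45 to 222 with 1 list left out, and those of the male lists alone 0 to 77. With all 6 lists, the female and male counts were 148 and 4 for any overlap, 82 and 2 for 0.5 kb, 17 and 0 for 2 kb, 0 and 0 for 5 kb, 108 and 2 for 5-kb bins, 19 and 0 for 20-kb bins, 43 and 1 on the shifted grid, and 25 and 0 with equal top peaks. Leaving out male replicate 2 gave 149 and 199 for any overlap, then 17 and 30, 0 and 2, 110 and 146, 19 and 29, 43 and 72, and 25 and 88 for the settings from 2 kb on in the same order (0.5 kb is not given). Leaving out 1 more list gave 222 and 86 (female replicate 1), 60 and 141 (female 2), 84 and 110 (female 3), 65 and 410 (male 1) and 103 and 194 (male 3).

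Calls among 1-Mb bins higher in female lists were 0 at a pseudocount of 10 ppm, 4 at 1000 ppm, 2 with equal top peaks, and 0 to 1 with 1 list left out. For the chromosome 18 bin, limma gave an adjusted p of 0.303 at 10 ppm and 0.0533 with equal top peaks and male replicate 2 left out. Autosomes called numbered 0 to 4 with 1 list left out. Deviations of same-numbered lists from their group mean correlated at -0.0942, -0.209 and 0.176, and those of other pairs at -0.294 to 0.252. With 3 lists per sex, this cannot show whether the numbers pair the lists. With the replicate block, 2 1-Mb bins were called. Without male replicate 2, the block gave 9 female and 5 male calls.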
